A study of Prunus persica with 18 samples.

Results

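The genes described here are 120 peach genes whose transcript level in basal buds was higher at each later sampling. They are a list of gene identifiers of 26873 in the table, and they were chosen from the measured values of the basal buds. Buds were taken from the apical and from the basal part of untreated shoots of Prunus persica cv Platinet 1, a flat nectarine, when 45 (T1), 58 (T3) and 79 (T5) days had passed since full bloom. Each of the 6 combinations of time and position had 3 biological replicates, which gave 18 RNA-seq libraries. All groups share the cultivar, the orchard and the absence of treatment, and each replicate pools the buds of several shoots, from which both its apical and its basal buds were cut. The libraries hold whole buds, so that in any result a change in the number of cells of a type and a change in RNA per cell cannot be told apart.

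Axillary buds of peach hold a meristem that can stay vegetative or turn to flower formation during the summer. At that time the fruit on the same tree are growing, and gibberellins made there and in the shoot hold flower formation back. Floral identity genes become active once the meristem has turned, and the buds enter dormancy later in the season. The question asked of the apical buds was whether the same genes climb there too.

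Levels are in CPM, the count of a gene divided by the sum of all gene counts of its library and multiplied by 1000000, so that they compare libraries and not genes of different length. Total counts ran from 21114469 to 47286272 per library. T3 replicate 1 of the apical buds stood apart most, with a chi-square per gene of 133 and 139 against the other T3 apical libraries. These differed from each other by 10.9, and the main counts are given with and without T3 replicate 1. T5 replicate 1 of the apical buds also differed from its group, by 50.7 and 31.2, where the other pair differed by 14.3. The range of the counts with each apical library left out is given at the end. A member had to have every T1 basal library below every T3 basal library and every T3 below every T5, a T5 mean of at least 2 CPM and a ratio of the T5 to the T3 mean under 4. The order held for 851 genes, 814 of them had the required T5 level, 51 of these exceeded the limit on the ratio, and 1 fell in an identifier range that was set aside. The other 762 genes were ranked by the smaller of their T3/T1 and T5/T3 ratios, and the first 120 were kept. The 120th, PRUPE_4G227100, had a score of 1.43 and the first gene left out, PRUPE_5G111700, a score of 1.42, so that the boundary falls within a continuous range. The choice used all 9 basal libraries, so the basal values are a description with no test, and the tests below use the 9 apical libraries alone.

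The files do not pair the PRUPE identifiers with gene names or products, and the members are therefore named by identifier only. None of the 15 genes that the study names is a member. Among these, GA2ox6 (PRUPE_4G150200), a gibberellin-inactivating dioxygenase gene, was in order in the basal buds but had a T5/T3 ratio of 5.39, and TPS9 (PRUPE_5G176400), of the trehalose phosphate synthase family, ranked 264th of the 762. UBQ10 (PRUPE_4G204900), a ubiquitin gene, ranked 437th, with a T5/T3 ratio of 1.43. As a check of the labelled tissue, the B-type cyclin genes CYCB1.2 (PRUPE_6G021200) and CYCB1.4 (PRUPE_4G269600) of dividing cells stood at 1.82 to 22.2 and 1.28 to 15.3 CPM. TFL1 (PRUPE_7G112600) stood at 5.55 to 31.2 CPM and CEN (PRUPE_6G128400) at 1.18 to 8.12 CPM. The floral marker AP1 (PRUPE_1G290600) stood under 1 CPM in every library, at 0.174 to 0.942 CPM. Its log2 fold change from T1 to T5 was 1.29 ± 0.288 in apical buds (SE, adjusted p = 0.00425, edgeR) and −0.33 ± 0.492 in basal buds (adjusted p = 0.571). The presence of these transcripts does not by itself identify the tissue or position.

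The members covered a wide range of abundance. In the basal buds their T5 means ran from 2.03 to 3219 CPM with a median of 21.7 CPM, and 30 members reached 100 CPM, 53 lay between 10 and 100 CPM and 37 lay under 10 CPM. The 10 most abundant held 68.6% of the CPM summed over the members. The summed level was 5647 to 6015 CPM in the T1 basal libraries, 9087 to 9726 CPM at T3 and 18633 to 21360 CPM at T5. The lowest count of any member in any library was 4, and 25 members had a library under 30 counts, for which counting error adds to the spread.

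The basal climb differed in size between the intervals, which were of unequal length (45 to 58 and 58 to 79 days after full bloom). The ratios were not scaled to days, so they give no pace. The median T3/T1 ratio of the members was 1.62 (quartiles 1.51 and 1.82, highest 6.57) from T1 to T3, and the median T5/T3 ratio was 1.94 (quartiles 1.67 and 2.63, highest 3.97) from T3 to T5. For 89 members the later ratio was the larger, and for 31 the earlier. Over the whole period the ratio of T5 to T1 ran from 2.12 to 13.3 with a median of 3.34.

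PRUPE_1G436500 had the highest score of all. Its basal level was 1.23, 0.997 and 0.781 CPM at T1, 3.36, 3.79 and 2.97 CPM at T3 and 9.26, 10.9 and 12.6 CPM at T5. In apical buds it stood at 1.17, 1.01 and 1.43 CPM at T1, 5.70, 2.37 and 2.53 CPM at T3 and 6.49, 13.5 and 12.5 CPM at T5. The apical libraries did not overlap between time points, and replicate 1 was the highest of the 3 at T3 and the lowest at T5.

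PRUPE_4G096300, sixth by score, showed the pattern at a higher level. Its basal libraries gave 62.6, 71.7 and 68.1 CPM at T1, 154, 157 and 135 CPM at T3 and 372, 393 and 470 CPM at T5. The apical libraries gave 73.1, 74.1 and 66.6 CPM at T1, 114, 99.4 and 95.1 CPM at T3 and 257, 286 and 333 CPM at T5. The positions overlapped at T1, and from T3 on every apical library lay below every basal library of its time point.

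PRUPE_6G050300 had the largest T3/T1 ratio of the basal buds, 6.57, from a low start. It stood at 0.270, 0.302 and 0.136 CPM in the basal T1 libraries, at 1.61, 1.36 and 1.68 CPM at T3 and at 2.35, 3.49 and 3.60 CPM at T5. The apical values were 0.476, 0.599 and 0.444 CPM at T1, 1.12, 0.805 and 1.57 CPM at T3 and 2.20, 2.72 and 2.78 CPM at T5. The apical order was the same, with a smaller first step. The apical log2 fold change from T3 to T5 was 1.14 ± 0.260 (SE, adjusted p = 0.00494, edgeR), a call that was lost without T3 replicate 1 or 2 or T5 replicate 2 or 3 (adjusted p up to 0.0194).

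PRUPE_2G014800, second by score, had a wide spread at T3. Its basal values were 0.463, 0.574 and 0.374 CPM at T1, 1.11, 2.69 and 0.719 CPM at T3 and 5.27, 5.08 and 6.49 CPM at T5. Its apical values overlapped between T1, with 1.05, 1.32 and 0.395 CPM, and T3, with 1.10, 0.947 and 1.14 CPM, and were all higher at T5, with 5.00, 3.38 and 4.64 CPM.

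In apical buds the members' climb was mostly found in the second interval, which was also the longer. Fold changes in apical buds were tested with edgeR's quasi-likelihood test, and a gene was said to rise or fall where its p adjusted over all genes tested was below 0.01 and its change at least 2-fold. All 120 members were among the 19636 genes tested, and none was kept by the filter through its T5 level alone. From T1 to T3, 4 members rose and none fell, against 0.056% of all genes that rose and 0% that fell. From T3 to T5, 72 members (60%) rose and none fell, where 8.65% of all genes rose and 12.1% fell. From T1 to T5, 99 members (82.5%) rose and none fell, where 9.47% of all genes rose and 12.8% fell.

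The fitted changes show the same contrast between the intervals. The median log2 fold change of the members was 0.47 from T1 to T3, against −0.01 over all genes tested, and it ran from −0.72 to 1.95. From T3 to T5 the median was 1.24, against 0 over all genes, with a range from −0.71 to 3.11, and from T1 to T5 it was 1.80, against 0.01, with a range from −1.20 to 3.97. The first change was positive for 102 members and negative for 18. At an unadjusted p below 0.05 it was positive for 58 members and negative for 3, against 2228 and 1508 of the 19636 genes tested. The second was positive for 117 members and negative for 3. At an unadjusted p below 0.05 it was positive for 104 members and negative for 1, against 5414 and 5858 of all genes. Over the whole period these counts were 114 and 1, against 5256 and 5651. At an adjusted p below 0.05 and with no limit on the fold change, 13 members rose from T1 to T3 (0.407% of all genes tested), 101 from T3 to T5 (23.8%) and 112 from T1 to T5 (23.5%). On the same terms 0, 1 and 1 members fell, where 0.127%, 26.7% and 25.8% of all genes did.

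A count over the 2 intervals together shows which members carry each call. Both intervals were called for 3 members, the first alone for 1, the second alone for 69, and for 28 no single interval was called although T5 exceeded T1 by a called amount. The remaining 19 had no call, and their T5/T1 ratios in apical buds ran from 0.397 for PRUPE_5G110600 to 1.79 for PRUPE_5G078500. Of the 19636 genes tested, 11 rose from T1 to T3, 1698 from T3 to T5 and 1859 from T1 to T5. A call in the first interval was thus rare for any gene. The combinations were not counted over all genes, so nothing is read from the split.

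**Figure D1:**
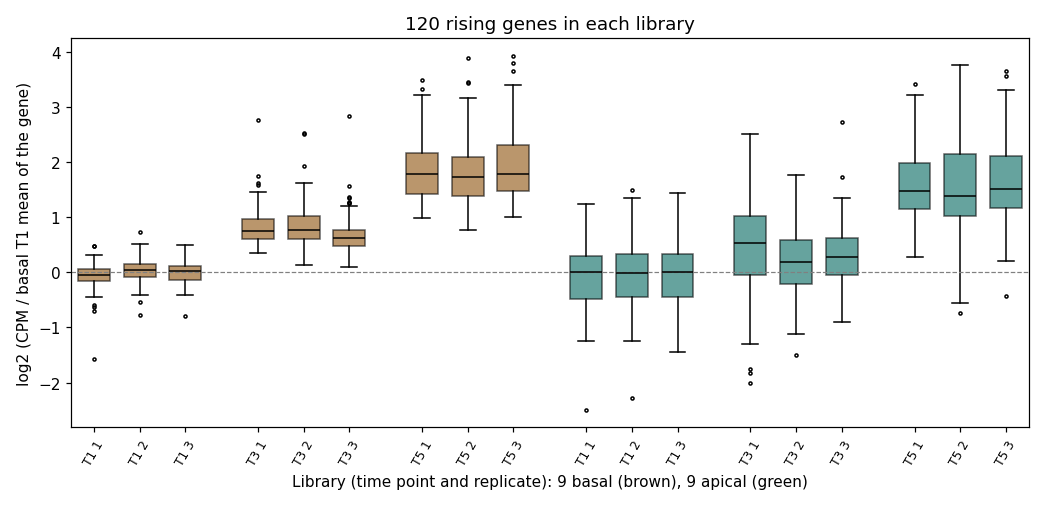
Each box shows the log2 ratio of the CPM of the 120 members in 1 library to the gene's mean in the T1 basal buds, with the quartiles as the box, the median as the line and outlying genes as points. The 9 basal libraries (brown), which chose the genes, climb in 2 steps, and the 9 apical libraries (green) climb mainly at T5, with T3 replicate 1 above the other T3 apical libraries.

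Library by library, the members' level was set relative to the basal T1 mean. The median of this ratio over the members was 0.987 to 1.00 in the T1 apical libraries, so that both positions started at the same median level. At T3 it was 1.45, 1.15 and 1.22 in the apical libraries and 1.54 to 1.71 in the basal ones. At T5 it was 2.60 to 2.84 in the apical and 3.30 to 3.45 in the basal libraries. The medians of the apical libraries were below those of the basal libraries at both later time points. The choice of the genes had set the basal libraries of these times above the basal T1 libraries, so this gap is a description only.

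The T3 apical libraries were the most dispersed. The median coefficient of variation over the members was 22.7% there, against 19.6% over all genes tested, while in the other 5 groups it was 10.2% to 13.5% over the members. Replicate 1 was the highest of the 3 T3 apical libraries for 74 members (61.7%), against 41.8% of all genes tested. Without this library 4 members rose from T1 to T3, the same as with it, 81 in place of 72 rose from T3 to T5 and 100 in place of 99 from T1 to T5, and 1 member, PRUPE_5G110600, fell from T1 to T5. The median log2 fold change of the members was then 0.35 in place of 0.47 from T1 to T3 and 1.28 in place of 1.24 from T3 to T5. Counts over all genes without this library are not set beside these, so the shifts are not read as particular to the members.

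The order that chose the genes can be read in the apical libraries, which the choice did not use. In apical buds 43 members (35.8%) had every T1 library below every T3 and every T3 below every T5 library, a pattern found in 2.60% of all genes tested. Every T3 library was above every T1 library for 54 members (45.0%), against 10.5% of all genes, and every T5 above every T3 library for 99 members (82.5%), against 26.2%. The reverse order of the first interval was found for 6 members, against 27.9% of all genes, and of the second for 1 member, against 30.3%. Among the 642 ranked genes that were not kept, 15.9% had the full order in apical buds, 26.6% the first step and 75.2% the second. Among the 51 genes set aside for a T5/T3 ratio of at least 4 these shares were 47.1%, 47.1% and 100%. Without T3 replicate 1 of the apical buds, 59 members had the full order, 61 the first step and 113 the second. Any gene meets such an order more easily with a library fewer, so nothing is read from the higher counts.

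The apical order sorts the members into 4 kinds. The 43 members with both steps had a median T3/T1 ratio of 1.71 in apical buds and of 1.70 in basal buds. The 56 members with the second step only had 1.05 in apical and 1.60 in basal buds, and their median apical T5/T3 ratio was 2.72, above the basal one of 1.99. For 11 members only the first step was in order, with a median apical T5/T3 ratio of 1.26, and for 10 neither was. Among the 19636 genes tested, 510 had both steps, 4632 the second only, 1556 the first only and 12938 neither. The first step only was thus about as frequent among all genes as among the members. In basal buds the median T3/T1 ratios of the 4 kinds lay between 1.60 and 1.70. The choice left no basal T3/T1 ratio under 1.43, so nothing is read from the closeness of these medians.

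The rank in the basal buds went with the apical calls mainly at the top of the list. Of the members ranked 1 to 40, 35 rose from T3 to T5 and 38 from T1 to T5 in apical buds. For ranks 41 to 80 these counts were 16 and 30, and for ranks 81 to 120 they were 21 and 31. The full order was found for 19, 10 and 14 members of these 3 blocks. By abundance, 27 of the 37 members under 10 CPM at basal T5 rose from T1 to T5, as did 45 of 53 members between 10 and 100 CPM and 27 of 30 above.

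**Figure D2:**
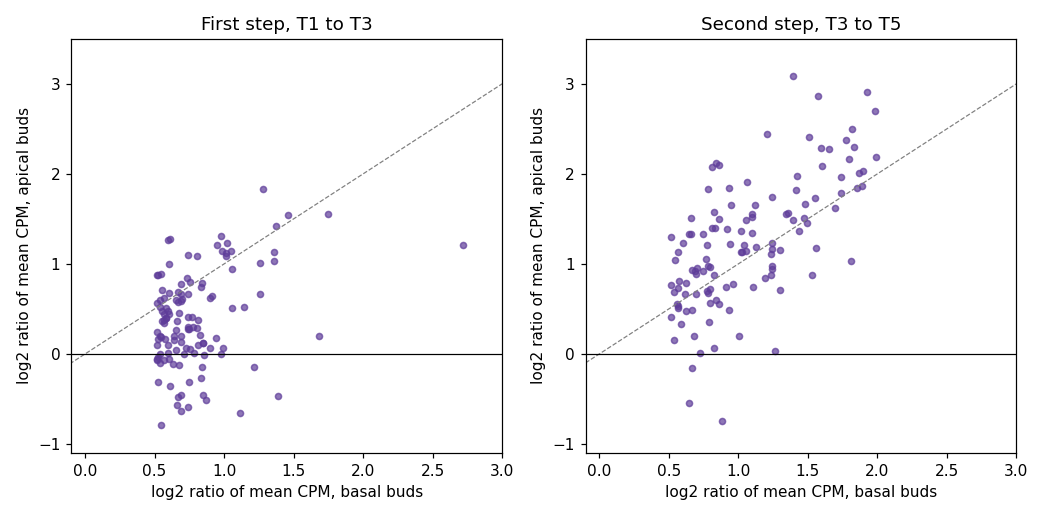
Each point is 1 of the 120 members, with the log2 ratio of mean CPM in basal buds on the horizontal axis and in apical buds on the vertical axis, for T1 to T3 on the left and T3 to T5 on the right; the dashed line marks equal ratios and the solid line no change. For the first step 93 members lie below the dashed line, and for the second step 75 lie above it. The basal ratios chose the members, so neither count is a test.

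Set side by side, the ratios of the positions differ in opposite ways in the 2 intervals. In apical buds the median T3/T1 ratio was 1.29, from 0.580 to 3.55, and it was below the basal ratio for 93 members, a comparison in which the basal ratios had chosen the members. The median T5/T3 ratio was 2.29, from 0.598 to 8.51, and it was above the basal ratio for 75 members. Here the choice had held the basal ratio under 4 and left the apical one free. Both ratios use the apical T3 mean, so the 2 comparisons are not separate results. By T5 the apical level had reached 3.14 times that of T1 at the median, against 3.34 times in basal buds. Over all genes tested the same medians were 0.932, 0.975 and 0.919 in apical buds and 0.961, 0.895 and 0.857 in basal buds. No test was made of a difference between positions, since the basal values chose the genes.

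Levels of the members were also set against each other at each time point. The median ratio of apical to basal means was 1.02 at T1, 0.729 at T3 and 0.843 at T5, and over all genes tested it was 0.997, 0.977 and 1.04. At T3 every apical library was below every basal library for 56 members (46.7%), against 30% of all genes, and above for 7 (5.83%), against 24.1%. At T5 the counts were 52 below (43.3%), against 10.0%, and 6 above (5.00%), against 19.6%. At T1 they were 32 below (26.7%) and 29 above (24.2%), against 28.2% and 28.3% of all genes. The choice of the genes set the basal T3 and T5 libraries above the basal T1 libraries, so these shares are a description and nothing is read from their distance to those of all genes. The apical T3 mean was still under the basal T1 mean for 37 members, and the apical T5 mean was above the basal T3 mean for 108.

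The 4 members that rose from T1 to T3 in apical buds were named after their values were seen. PRUPE_1G435100 stood at 5.01, 5.64 and 4.83 CPM at T1, 12.4, 11.3 and 12 CPM at T3 and 27.4, 28.0 and 27.1 CPM at T5 in apical buds. Its log2 fold change was 1.30 ± 0.119 (SE, n = 3 per group, adjusted p = 0.00375, edgeR) from T1 to T3 and 1.24 ± 0.116 (adjusted p = 2.59e-05) from T3 to T5. The replicates of each group lay close together, and the groups were far apart.

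PRUPE_1G334000 stood at 2.25, 2.52 and 2.37 CPM, then at 5.42, 7.96 and 7.46 CPM and at T5 at 22.3, 21.2 and 18.9 CPM in apical buds. It rose by a log2 fold change of 1.63 ± 0.164 (SE, adjusted p = 0.00512, edgeR) and then by 1.62 ± 0.154 (adjusted p = 2.87e-05). Its basal T1 libraries gave 5.40, 5.47 and 5.03 CPM, all above those of the apical buds.

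PRUPE_3G011200 was at 21.7, 22.0 and 21.1 CPM, at 44.3, 41.3 and 52.0 CPM and at 95.9, 91.4 and 93.8 CPM at the 3 time points in apical buds. Its first log2 fold change was 1.18 ± 0.111 (SE, adjusted p = 0.00375, edgeR) and its second 1.07 ± 0.110 (adjusted p = 4.47e-05), which was under 2-fold without T3 replicate 2. Here the apical libraries were above the basal ones at T1, with 14.4, 19.9 and 12.4 CPM in the latter, and at T3, with 28.4, 26.2 and 27.1 CPM.

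PRUPE_6G071400 gave 6.37, 6.68 and 6.59 CPM at T1, 12.3, 14.5 and 15.2 CPM at T3 and 26.2, 29.7 and 25.5 CPM at T5 in apical buds, with a first log2 fold change of 1.19 ± 0.131 (SE, adjusted p = 0.00801, edgeR). Its second log2 fold change, 0.99, was just under the 2-fold limit. These 4 calls were near the limit of significance. No member was called from T1 to T3 without T1 replicate 1, 2 or 3, T3 replicate 3 or T5 replicate 1, 2 or 3 of the apical buds, each left out alone, while 4 were called without T3 replicate 1 and 3 without T3 replicate 2. Over these 9 fits the adjusted p of the 4 members ran up to 0.0829. With DESeq2 in place of edgeR 19 members rose in this interval, among 141 genes in all, and these included the 4.

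PRUPE_1G436600 had the largest change from T1 to T3 and from T1 to T5 among the members. In apical buds it was at 0.825, 0.694 and 0.641 CPM at T1, 3.40, 1.89 and 2.37 CPM at T3 and 8.67, 10.9 and 11.2 CPM at T5. The log2 fold change was 1.95 ± 0.271 (SE, adjusted p = 0.0208, edgeR) in the first interval, which missed the limit, and 3.97 ± 0.269 (adjusted p = 3.96e-06) over the whole period. The basal libraries gave 0.964, 1.66 and 1.09 CPM at T1, 2.22, 3.82 and 2.97 CPM at T3 and 8.67, 11.1 and 13.1 CPM at T5. The T5 libraries of both positions overlapped.

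PRUPE_7G087200 had the largest change from T3 to T5. Its apical level went from 1.59, 2.05 and 2.42 CPM at T1 and 4.50, 2.46 and 2.61 CPM at T3 to 20.8, 35.6 and 25 CPM at T5, a second log2 fold change of 3.11 ± 0.309 (SE, adjusted p = 3.92e-05, edgeR). In basal buds it was at 2.85, 2.66 and 2.68 CPM, at 6.52, 6.83 and 6.25 CPM and at 15.6, 17.0 and 18.8 CPM. Every apical library was below every basal one at T3 and above every basal one at T5.

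**Figure D3:**
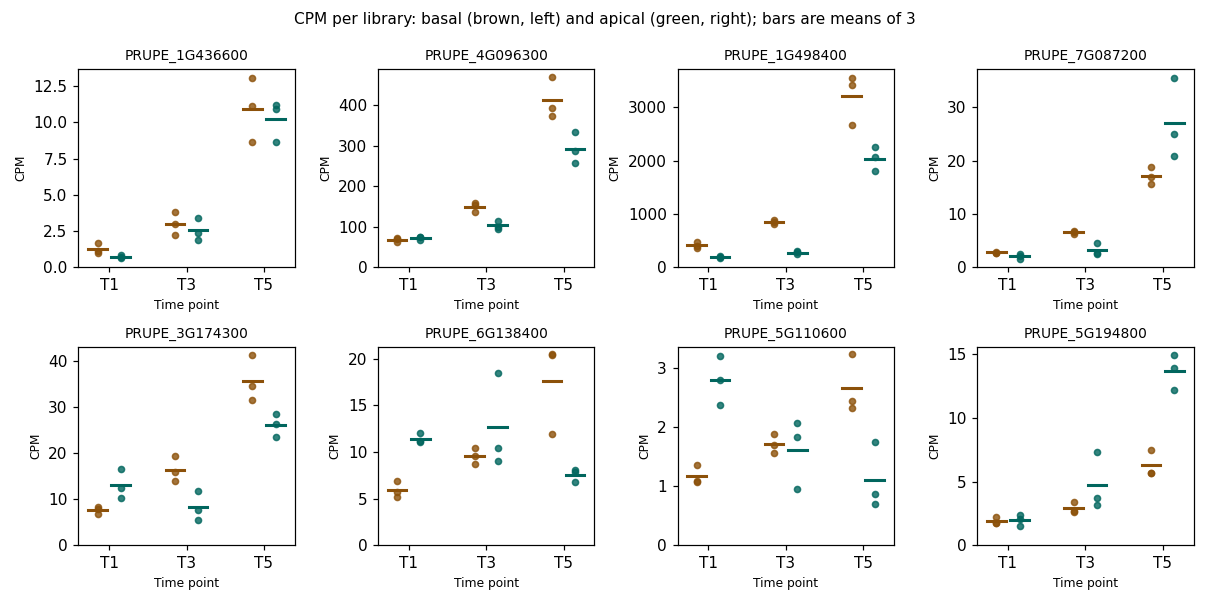
CPM of 8 members in each library by time point, with 1 point per library and a bar at the mean of 3 replicates, basal buds in brown on the left and apical buds in green on the right of each time point; every vertical axis is linear and starts at 0. PRUPE_6G138400 and PRUPE_5G110600 do not climb in apical buds, and PRUPE_3G174300 is lower at T3 than at T1 in apical means.

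A few members were higher in apical than in basal buds at T5. PRUPE_5G194800 had the highest ratio, 2.18, with 12.2, 13.9 and 14.9 CPM in apical and 7.51, 5.70 and 5.64 CPM in basal T5 libraries. Its apical level had been 1.49, 2.05 and 2.37 CPM at T1 and 7.35, 3.74 and 3.20 CPM at T3, and it rose from T3 to T5 by a log2 fold change of 1.54 ± 0.307 (SE, adjusted p = 0.00233, edgeR), a call lost without T5 replicate 3 (adjusted p = 0.0103). PRUPE_2G220400 followed, with 3.21, 3.98 and 3.84 CPM in apical and 2.71, 1.55 and 2.65 CPM in basal T5 libraries. Its apical values at T1, of 0.825, 0.820 and 0.493 CPM, overlapped with those at T3, of 0.974, 0.474 and 1.14 CPM.

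At the other end, the apical level lagged or went the other way. PRUPE_1G037200 was at 2.80, 2.04 and 3.69 CPM in apical and 6.56, 5.85 and 7.83 CPM in basal T5 libraries. In apical buds it had been at 1.33, 1.36 and 2.20 CPM at T1 and 1.60, 1.61 and 1.91 CPM at T3, and its log2 fold change over the whole period, 0.91 ± 0.277 (SE, adjusted p = 0.0201, edgeR), was not called.

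PRUPE_5G110600 had the lowest ratio at T5. In apical buds it was at 2.38, 2.81 and 3.21 CPM at T1, 0.949, 2.08 and 1.83 CPM at T3 and 1.75, 0.707 and 0.877 CPM at T5, with a log2 fold change of −1.20 ± 0.350 (SE, adjusted p = 0.0167, edgeR) over the period. The basal values were 1.08, 1.36 and 1.09 CPM, then 1.71, 1.88 and 1.56 CPM and at T5 2.45, 2.33 and 3.24 CPM. The apical T1 libraries were all above the apical T5 libraries, and the basal T1 libraries all below the basal T5 ones. The fall did not pass the limit with edgeR in all 9 libraries, and it passed without T3 replicate 1 (adjusted p = 0.00405) or T5 replicate 1 (adjusted p = 0.00514) and with DESeq2 (adjusted p = 0.00339).

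PRUPE_6G138400 also ended lower in apical buds than it began. It was at 11.2, 12 and 11.1 CPM at T1, 18.5, 9 and 10.4 CPM at T3 and 7.81, 8.09 and 6.83 CPM at T5, and its change from T3 to T5 was −0.71 ± 0.245 on the log2 scale (SE, adjusted p = 0.0341, edgeR). In basal buds it was at 6.90, 5.68 and 5.20 CPM, at 10.4, 8.69 and 9.54 CPM and at 20.5, 11.9 and 20.4 CPM. The gene was the only member with every T5 apical library below every T3 apical library.

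PRUPE_3G174300 dipped in the apical means at T3. Its apical values were 12.5, 16.6 and 10.2 CPM at T1, 5.47, 11.7 and 7.66 CPM at T3 and 28.5, 23.5 and 26.3 CPM at T5, and the first 2 groups overlapped. The first log2 fold change was −0.58 ± 0.260 (SE, adjusted p = 0.263, edgeR) and the second 1.70 ± 0.263 (adjusted p = 0.000527). Its rise from T1 to T5, 1.13 ± 0.256 (adjusted p = 0.00475), was lost without T1 replicate 1 or 3 or any 1 of the T5 replicates (adjusted p up to 0.0247). In basal buds it was in strict order, at 7.90, 6.71 and 8.25 CPM, 15.9, 19.4 and 13.9 CPM and 34.5, 31.4 and 41.2 CPM.

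Several members stood next to each other in the table. Rows follow the identifiers, and 7 pairs of members filled consecutive rows, which took in 12 members, while 24 members fell into 10 runs with at most 10 rows from one member to the next. Identifiers beginning PRUPE_1G made up 37 members (30.8%), against 22.3% of the genes tested. A member whose neighbour is a near-identical copy may share reads with it, since the counting mode is not given in the sources used here, and the levels within a run are uncertain for that reason.

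PRUPE_1G436500, PRUPE_1G436600 and PRUPE_1G436700, in 3 consecutive rows, ranked 1, 4 and 3. The last of them was at 0.539, 0.473 and 0.765 CPM at T1, 1.67, 0.947 and 1.01 CPM at T3 and 3.88, 4.58 and 5.70 CPM at T5 in apical buds. Its basal values were 0.655, 0.695 and 1.19 CPM, 2.32, 2.40 and 1.77 CPM and 6.87, 6.90 and 7.86 CPM. All 3 were in strict order in apical buds, and all 3 rose from T3 to T5, with log2 fold changes of 1.64 ± 0.392, 2.02 ± 0.236 and 1.97 ± 0.289 (SE, adjusted p = 0.00637, 9.47e-05 and 0.000389, edgeR). For PRUPE_1G436500 this call was lost in 7 of the 9 fits that left out an apical library, all but those without T3 replicate 1 or T5 replicate 1 (adjusted p up to 0.0268).

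**Figure D4:**
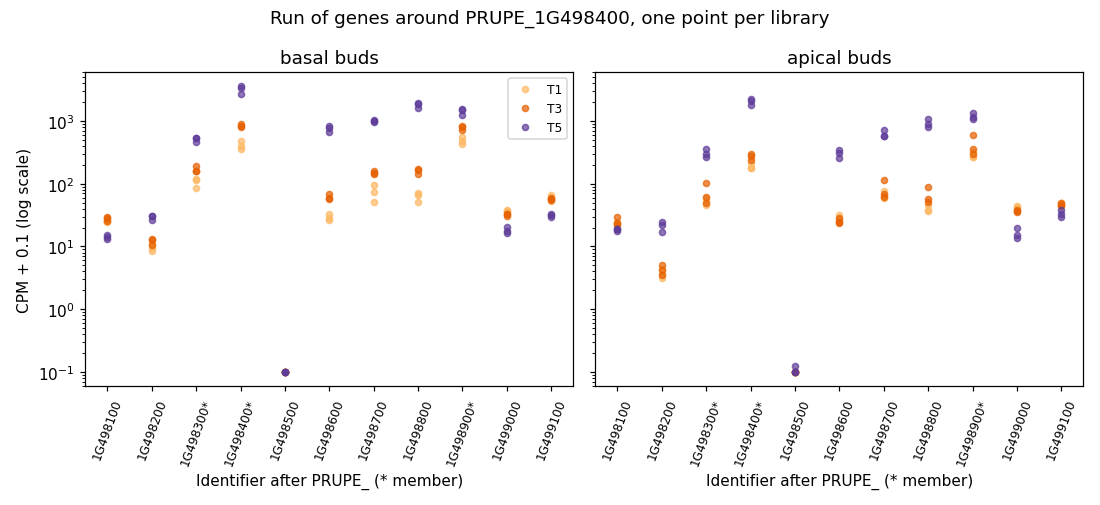
CPM plus 0.1 on a log scale for the genes from PRUPE_1G498100 to PRUPE_1G499100 in row order, with 1 point per library coloured by time point, basal buds on the left and apical buds on the right; asterisks mark members. The members and 4 genes beside them are highest at T5 in both positions, the outer genes are not, and PRUPE_1G498500 is at or near 0.

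PRUPE_1G498400 had the highest mean of the members in basal buds at T5, 3219 CPM, while at T1 and T3 it was below PRUPE_4G030300. It stood at 399, 352 and 472 CPM at T1, 885, 813 and 847 CPM at T3 and 2670, 3560 and 3426 CPM at T5 in basal buds. In apical buds it was at 179, 176 and 216 CPM, at 295, 237 and 280 CPM and at 2058, 1808 and 2246 CPM. The apical libraries were below the basal ones at every time point, and the second apical log2 fold change was 2.95 ± 0.154 (SE, adjusted p = 1.81e-06, edgeR).

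Its neighbours PRUPE_1G498300 and PRUPE_1G498900 were members as well. The former had 45.0, 52.2 and 59.5 CPM at T1, 104, 49.4 and 60.7 CPM at T3 and 294, 263 and 353 CPM at T5 in apical buds, and the latter 267, 266 and 316 CPM, 607, 301 and 358 CPM and 1144, 1093 and 1336 CPM. For both, T3 replicate 1 was well above the other T3 libraries. They rose from T3 to T5 by log2 fold changes of 2.12 ± 0.272 and 1.53 ± 0.247 (SE, adjusted p = 0.000169 and 0.000687, edgeR).

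Between and beside these members stood PRUPE_1G498200, PRUPE_1G498600, PRUPE_1G498700 and PRUPE_1G498800, which were not members and were looked at for their place. They too rose from T3 to T5 in apical buds, by 2.36 ± 0.198, 3.60 ± 0.163, 2.97 ± 0.260 and 3.85 ± 0.244 on the log2 scale (SE, edgeR). None of the 7 was called from T1 to T3, with adjusted p from 0.0983 to 0.887. PRUPE_1G498100, at one edge of the run, changed by −0.41 ± 0.131 from T3 to T5 (SE, adjusted p = 0.0259).

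PRUPE_8G116800 and PRUPE_8G116900, ranked 15 and 14, formed another pair. In apical buds their means were 6.15 and 2.83 CPM at T1, 13.6 and 6.18 CPM at T3 and 30.4 and 22.2 CPM at T5, and both rose from T3 to T5. Both were in strict order in the apical libraries.

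PRUPE_I000600, PRUPE_I000700 and PRUPE_I000800 formed a run among the identifiers beginning PRUPE_I, of which 34 were tested and 4 were members. Their apical T5 means were 1.76, 5.93 and 98.6 CPM, all 3 rose from T1 to T5, and only PRUPE_I000800 was in strict order there. The call of PRUPE_I000600 was lost without any 1 of the T1 or T5 replicates (adjusted p up to 0.0275), and that of PRUPE_I000700 without T1 replicate 1 (adjusted p = 0.0112). Neighbours did not always move alike. PRUPE_6G138700, 3 rows from PRUPE_6G138400, had apical means of 152, 245 and 249 CPM. Its T3 libraries gave 380, 173 and 182 CPM and its T5 libraries 226, 257 and 266 CPM, so that replicate 1 raised the T3 mean, which was 178 CPM without it. No change of this gene was called in apical buds. Beside them PRUPE_6G138600 and PRUPE_6G138800, which were not members, fell from T3 to T5 in apical buds. Their log2 fold changes were −1.26 ± 0.224 and −2.31 ± 0.289 (SE, adjusted p = 0.00122 and 0.00015, edgeR). PRUPE_6G138200, PRUPE_6G138300 and PRUPE_6G138900, also not members, were not called in this interval.

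PRUPE_4G030300 was the most abundant member of the apical T5 libraries, with 2548, 2214 and 2257 CPM. It had been at 942, 877 and 856 CPM at T1 and at 1409, 1109 and 1200 CPM at T3, in strict order. Its log2 fold changes were 0.57 ± 0.120 and then 0.95 ± 0.120 (SE, adjusted p = 0.0726 and 0.000153, edgeR), each under 2-fold, and over the period it rose by 1.52 ± 0.122 (adjusted p = 8.76e-06). Without T3 replicate 1 its second change was 1.06 and was called (adjusted p = 1.07e-05, edgeR). In basal buds it was at 1067, 1304 and 978 CPM, 1728, 1720 and 1611 CPM and 2865, 2651 and 2970 CPM.

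PRUPE_4G227100, the last member by score, had the larger apical change in the first interval when all libraries were kept. It stood at 2.03, 2.68 and 2.34 CPM at T1, 8.50, 4.78 and 5.55 CPM at T3 and 12.4, 7.88 and 11.7 CPM at T5 in apical buds. The T3 and T5 libraries overlapped. The first log2 fold change was 1.52 ± 0.256 (SE, adjusted p = 0.0391, edgeR) and the second 0.78 ± 0.240 (adjusted p = 0.0218), neither of them called. That from T1 to T5, 2.30 ± 0.257, was called (adjusted p = 6.35e-05). Without T3 replicate 1 the apical T3 mean was 5.16 CPM, and the second change, 1.07, was called (adjusted p = 0.00118, edgeR). In basal buds the first step was the larger, from 4.24, 2.09 and 2.82 CPM to 7.59, 8.69 and 7.36 CPM and then to 13.8, 9.30 and 10.6 CPM.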

How the data were processed

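The authors sequenced stranded mRNA libraries, used Hisat2 for alignment against peach genome v2.0.a1 and HTSeq for counting. The deposited values are raw counts per gene and library. The strand setting is not given in the sources used here, so that overlapping genes may share reads. Total counts were 21114469 to 47286272 per library. Columns were assigned by name and 0 were left unused.

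Members were chosen by CPM, as the report states. The members and the lists were chosen with earlier results of these data known. Apical time points were compared with edgeR 4.0.16 in R 4.3.3 (quasi-likelihood test, robust, TMM, filterByExpr), with Benjamini-Hochberg adjusted p across 19636 genes and limits of 0.01 and 2-fold. On simulated counts of T1 and T3 apical libraries this called 95 of 100 genes changed by a log2 of 2. With 3 replicates per group an exact permutation test cannot go below 0.1. DESeq2 1.42.0, other scalings, no filter, all 18 libraries, a replicate block, an FDR of 0.05 and each library left out were the alternatives. SE is the log2 fold change divided by the root of the F statistic.

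The genes named were the 6 with the highest score, the last member and the first gene left out, the 2 top and the 2 bottom members by log2 fold change in each apical contrast, the 2 most abundant at apical T5, the 2 highest and the 2 lowest in apical to basal ratio at T5, the 2 with the largest basal T3/T1 ratio and any member that the study names. Other members named, and the alternatives run on them, were chosen after their values were seen. Of the identifiers, 0 matched the RefSeq gene table, so that no names, positions or sequences are given.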

Additional observations from a re-analysis of the deposited data

Results flagged for a closer look

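In 7 members every apical replicate moved against the basal replicates in at least 1 interval, without overlap. The differences between the positions were not tested, and the basal side was fixed by the choice of the genes.

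From T1 to T3, 6 members (5%) had every apical T3 library below every apical T1 library, against 27.9% of all genes tested. PRUPE_7G100600 went from 13.6, 16.3 and 11.2 CPM to 8, 10.7 and 10.2 CPM in apical buds, a ratio of means of 0.703 against 1.83 in basal buds, and reached 59.0, 43.9 and 47.4 CPM at T5. PRUPE_1G256100, whose identifier is next to that of TPS10, went from 32.5, 33.2 and 28.5 CPM to 17.9, 21.3 and 24.5 CPM (0.677 against 1.58) and reached 93.7, 119 and 97.1 CPM at T5. PRUPE_1G095500 had ratios of 0.806 in apical and 1.68 in basal buds. For PRUPE_5G134900 they were 0.666 and 1.67, and for PRUPE_8G063500 0.645 and 1.61. These 5 were all higher at T5 than at T3 in every apical library. PRUPE_5G110600 had ratios of 0.580 and 1.46 and did not recover, so that its T5/T1 ratio was 0.397 in apical and 2.28 in basal buds.

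PRUPE_6G138400 parted in the later interval. It was the 1 member (0.833%) with every apical T5 library below every apical T3 library, against 30.3% of all genes tested. Its T5/T3 ratio was 0.598 in apical and 1.84 in basal buds, and its T5/T1 ratio was 0.661 and 2.97. None of the 7 was called as falling in apical buds with edgeR and all 9 libraries. Without T3 replicate 1 or T5 replicate 1, PRUPE_5G110600 fell from T1 to T5.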

How the results depend on the processing

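The 4 members that rose from T1 to T3 in apical buds were the count that depended most on the settings. It was 19 with DESeq2, 2 with total-count scaling, 16 with all 18 libraries in the fit, 13 at an FDR of 0.05 with any fold change, and 0 to 4 with 1 apical library left out. With the replicate number as a block it was 0, and 0 over all genes. Same-numbered apical libraries of different time points had correlations of −0.435 to 0.063 in their deviations from the group means, so the numbers were not taken to pair the libraries. For all genes the rises from T1 to T3 were 141 with DESeq2 and 94 with all 18 libraries, against 11.

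Members that fell were 0 in each contrast. From T3 to T5, 1 fell at an FDR of 0.05. From T1 to T5, 1 fell with DESeq2, with all 18 libraries and at an FDR of 0.05, and 0 to 1 with a library left out (1 without T3 replicate 1 or T5 replicate 1). The cause of these differences was not tested.

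With a library left out, 66 to 81 members rose from T3 to T5 and 92 to 100 from T1 to T5, the medians were 0.35 to 0.58, 1.18 to 1.28 and 1.74 to 1.84, and 43 to 59 members were in strict order. Counts over all genes are not set beside these ranges, which describe the members only. Of the members, 89 to 116 were chosen again without 1 basal library, 106 with TMM scaling and 120 with a floor of 0.5 CPM. Total-count scaling moved the median of all genes from T1 to T5 by more than 0.1, to −0.12, and that of the members to 1.66. The separate steps were also counted without each library after seeing the data, and every T3 above every T1 library held for 54 to 67 members and every T5 above every T3 for 99 to 113. Leaving out a library can only raise such counts of order, for any gene. Over 34 members named, 3 changed sign in a contrast in which they were not called: PRUPE_2G014800 from T1 to T3 (−0.05 without T1 replicate 3), PRUPE_6G138400 from T1 to T3 (−0.15 without T3 replicate 1) and PRUPE_6G138700 from T3 to T5 (−0.14 to −0.01 without T3 replicate 2 or 3 or T5 replicate 3). PRUPE_3G174300 lost its call from T1 to T5 with total-count scaling (adjusted p = 0.0103) and in 5 of the 9 fits without 1 library. From T3 to T5, PRUPE_6G050300 lost its call with the block (adjusted p = 0.0127) and in 4 of 9 fits, PRUPE_1G436500 with the block (adjusted p = 0.0227) and in 7 of 9, and PRUPE_5G194800 in 1 of 9. In the same interval PRUPE_4G030300 and PRUPE_4G227100 gained a call without T3 replicate 1. The depth limits the members with few counts most.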
